A study of Mus musculus with 8 samples.

Results

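The ATP-binding cassette (ABC) transporters and the organic anion transporting polypeptides (SLCO) are the 2 large families of membrane carriers through which hepatocytes take up, secrete and compartmentalise bile salts, bilirubin, sterols, drugs and lipids. Members were the protein-coding genes of GENCODE release M21 (mm10) whose symbol starts with Slco and a digit, or is Abc, one letter from a to g and a number. The rule found 64 of 21951 protein-coding genes, with 50 ABC genes (16 Abca, 10 Abcb, 10 Abcc, 4 Abcd, 1 Abce, 3 Abcf and 6 Abcg) and 14 SLCO genes (6 Slco1, 2 Slco2, 1 Slco3, 2 Slco4, 1 Slco5 and 2 Slco6). The rule used no measured value. H3K27ac ChIP-seq was performed on mouse primary hepatocytes (MPH) of adult (10-week-old) male WT mice, whose strain is C57BL/6J in the methods and C57Bl6 in the labels. Cells in serum-free William's medium received 1 µM thapsigargin or its vehicle, 0.04% DMSO, for 4 h. Thapsigargin blocks the calcium pump of the endoplasmic reticulum and so causes endoplasmic reticulum stress (ERS). Each treatment gave 3 H3K27ac libraries from 3 independent preparations and 1 input library (8 libraries in all), and all cells shared isolation from the liver and short-term culture, so both treatments were compared in cells outside the animal.

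The values used were 3 deposited lists of regions, H3K27ac UP (5508), H3K27ac DOWN (3376) and unchanged (23312), which together hold 32196 regions. H3K27ac is acetylation of lysine 27 on histone H3, a mark of active promoters and enhancers. UP and DOWN are the names of the lists for thapsigargin against DMSO, at a false discovery rate of at most 0.05. The lists give positions alone, with no count, signal, fold change or value per library. No value per sample, no error between preparations and no test could therefore be given, the depth is unknown, and the 95% Wilson intervals cover counting error alone, with genes as units. In a bulk culture, fewer cells carrying the mark and less mark per cell cannot be told apart. The lists carried the labelled treatment and cell type at textbook genes. All 6 ERS genes looked up (Hspa5, Ddit3, Herpud1, Atf3, Trib3 and Xbp1) had a transcription start site (TSS) in an UP region, all 6 hepatocyte genes (Alb, Ttr, Apoa1, Cps1, Tat and Serpina1a) had one in a region, and of 13 markers of other liver cell types only Stab2, an endothelial receptor, had one, in an unchanged region of 3913 bp.

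As background, ABC proteins bind and hydrolyse ATP to move substrates across a membrane. In the hepatocyte several of them sit in the canalicular membrane and make bile, others in the basolateral membrane return conjugates to blood, and shorter transporters that work as dimers serve mitochondria, peroxisomes and lysosomes. Abce1 and the Abcf proteins carry the ATPase domains without a membrane domain and act on ribosomes. SLCO proteins, encoded by the Slco genes, are uptake carriers, and Slco1b2 is the main hepatic carrier of the family in the mouse.

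RefSeq promoters of 300 bp (250 bp before to 50 bp after a TSS, GRCm38, the assembly of mm10) were matched to 50 of the 64 genes, with 61 promoters. The 14 genes without a promoter included Abca6, Abcb8, Abcc1, Abcc3, Abcc6, Abcc8, Abcd2, Abcd4, Abcg1, Abcg4, Slco3a1 and Slco5a1. The 4 promoters printed first lay whole in UP regions and are shown because they differ widely in sequence. CG dinucleotides are in capitals. Abcc2 (chr19:43782058-43782357, plus strand) had 1 CG and 45.0% G and C, whereas Abcc4 (chr14:118706170-118706469, minus strand) had 41 and 72.7%. Abce1 (chr8:79711691-79711990, minus strand) and Abcf3 (chr16:20548353-20548652, plus strand), both of translation ATPases, had 27 each.
Abcc2: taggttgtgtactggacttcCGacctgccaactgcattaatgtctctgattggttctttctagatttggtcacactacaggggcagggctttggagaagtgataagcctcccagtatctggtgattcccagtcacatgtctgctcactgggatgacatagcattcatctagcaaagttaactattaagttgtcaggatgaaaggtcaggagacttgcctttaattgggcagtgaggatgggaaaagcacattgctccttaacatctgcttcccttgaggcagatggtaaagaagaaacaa
Abcc4: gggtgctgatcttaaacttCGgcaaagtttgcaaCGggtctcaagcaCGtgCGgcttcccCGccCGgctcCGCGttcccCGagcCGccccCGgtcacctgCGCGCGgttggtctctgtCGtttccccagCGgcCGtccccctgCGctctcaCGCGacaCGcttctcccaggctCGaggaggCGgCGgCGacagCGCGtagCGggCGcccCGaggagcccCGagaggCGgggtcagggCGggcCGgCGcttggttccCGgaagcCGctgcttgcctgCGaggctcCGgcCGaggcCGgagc
Abce1: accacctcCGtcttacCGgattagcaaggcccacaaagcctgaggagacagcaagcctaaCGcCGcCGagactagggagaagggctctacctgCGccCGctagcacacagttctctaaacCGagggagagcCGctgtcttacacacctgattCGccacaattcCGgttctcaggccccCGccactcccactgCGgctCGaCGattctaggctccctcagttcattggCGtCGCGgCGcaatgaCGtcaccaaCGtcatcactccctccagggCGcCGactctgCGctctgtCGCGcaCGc
Abcf3: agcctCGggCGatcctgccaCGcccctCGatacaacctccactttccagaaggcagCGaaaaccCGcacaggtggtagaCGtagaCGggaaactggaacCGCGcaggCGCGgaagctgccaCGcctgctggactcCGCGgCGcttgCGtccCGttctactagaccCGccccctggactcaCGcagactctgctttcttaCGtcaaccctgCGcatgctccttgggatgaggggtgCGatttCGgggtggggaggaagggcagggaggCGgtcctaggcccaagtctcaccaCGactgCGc

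The next 2 promoters lay whole in unchanged regions and belong to bile transporters of the same membrane as Abcc2. Abcb11 (chr2:69342567-69342866, minus strand) had 4 CG dinucleotides and Abcg5 (chr17:84682962-84683261, minus strand) had 5, again in capitals.
Abcb11: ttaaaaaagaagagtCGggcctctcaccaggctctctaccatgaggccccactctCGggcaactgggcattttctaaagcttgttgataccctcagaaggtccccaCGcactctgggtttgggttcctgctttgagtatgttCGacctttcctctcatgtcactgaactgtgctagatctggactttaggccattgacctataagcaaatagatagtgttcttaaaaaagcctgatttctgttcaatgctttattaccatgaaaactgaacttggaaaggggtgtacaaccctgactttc
Abcg5: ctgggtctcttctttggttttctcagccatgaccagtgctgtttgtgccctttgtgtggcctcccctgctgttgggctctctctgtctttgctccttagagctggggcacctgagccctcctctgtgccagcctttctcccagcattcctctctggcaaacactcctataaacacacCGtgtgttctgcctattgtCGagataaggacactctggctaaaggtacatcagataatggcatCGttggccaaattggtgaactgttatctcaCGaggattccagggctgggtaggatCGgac

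Of the 64 genes, 34 (53.1%) had a TSS in a listed H3K27ac region, and the share over all protein-coding genes was 44.7%. By the authors' rules, regions that passed the false discovery rate with changes of mixed direction are in no list. A gene described as without a TSS in a region may thus have one in such a region. It was 29 of 50 (58%) for ABC genes and 5 of 14 (35.7%) for SLCO genes. Their 347 annotated TSSs included 104 in regions, and these lay in 38 different regions (8 UP, 2 DOWN and 28 unchanged). Abcg5 and Abcg8, a divergent pair whose TSSs are 110 bp apart, shared 1 region. Most ABC and SLCO genes with the mark at a TSS carried it in a region that did not pass the test of change. A TSS lay in an UP region for 8 of the 34 genes (23.5%, interval 12.4% to 40%), beside 21.6% of the 9820 protein-coding genes with a TSS in a region. A TSS lay in a DOWN region for 2 genes (5.88%, interval 1.63% to 19.1%), beside 8.33%. Both shares were near those of all genes. Unchanged regions held TSSs of 26 of the 34 genes, beside 7353 of the 9820 protein-coding genes with a TSS in a region. Of these 26 genes, 24 had no TSS in a changed region. The other two, Abcc2 and Slco2a1, had TSSs in an UP and in an unchanged region.

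**Figure D1:**
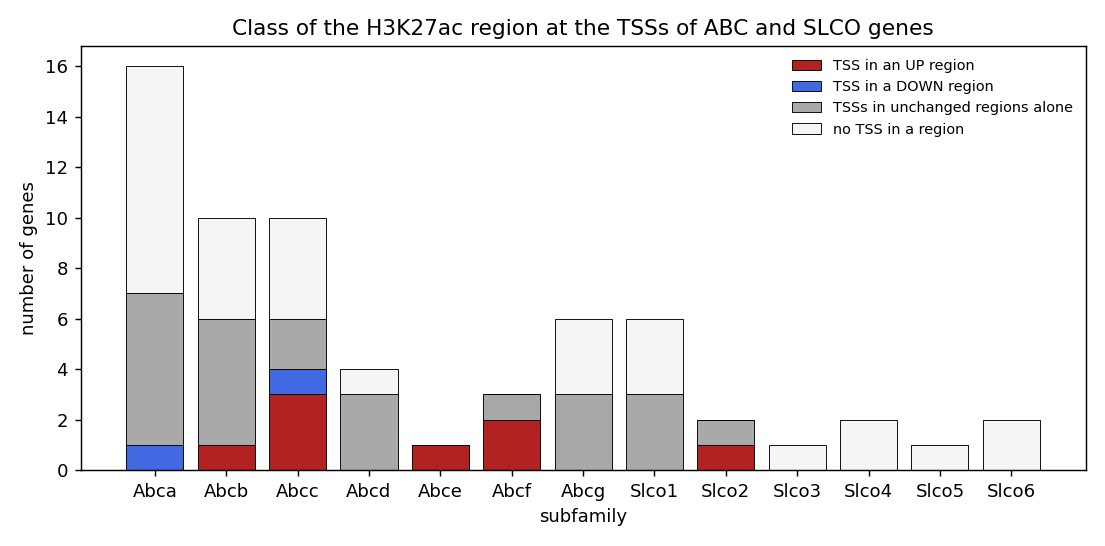
Number of genes (vertical axis) in each subfamily (horizontal axis), stacked by the class of the H3K27ac region at their TSSs, with Abcc2 and Slco2a1 drawn as UP. The 3 UP genes of Abcc, 2 of Abcf, 1 of Abce, 1 of Abcb and 1 of Slco2 make the 8 UP genes, and the 2 DOWN genes are in Abca and Abcc.

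Among subfamilies, changed regions were found at Abcb (1 UP of 6 genes with a region), Abcc (3 UP and 1 DOWN of 6), Abce (1 UP of 1), Abcf (2 UP of 3), Abca (1 DOWN of 7) and Slco2 (1 UP of 2). No changed region lay at a TSS of the 3 Abcd, 3 Abcg and 3 Slco1 genes with a region. The plot of genes by subfamily shows these counts beside the genes without a region, among them all 6 genes of Slco3 to Slco6. The UP interval was 18.8% to 81.2% for Abcc and 0% to 35.4% for Abca, so these intervals overlap, and that of Abcc holds the 21.6% of all genes. Background shares in the same width deciles, UP then DOWN, were 20.9% and 4.9% for Abcb, 21.1% and 12.4% for Abcc, and 18.7% and 3.14% for Abce. They were 22.1% and 4.82% for Abcf, 21.6% and 11.4% for Abca, and 25.7% and 8.81% for Slco2. For Abcd, Abcg and Slco1 they were 23.1% and 9.33%, 24.8% and 6.72%, and 28.1% and 19.9%. With 1 to 7 genes a subfamily, no subfamily could be set apart from another by the counts.

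In the translation ATPases, 3 of 4 genes carried an UP region at a TSS and none a DOWN region. The UP share was 75% (interval 30.1% to 95.4%), beside 21.6% over all genes and 21.3% in the same width deciles. The DOWN interval was 0% to 49%, beside 8.33% and 4.4%. These 4 genes were grouped with earlier results of these data known, so the intervals are no test of the group. Abce1 recycles ribosomes after termination. The UP region at Abce1 (chr8:79710983-79712395, 1413 bp) spanned exon 1 and 3 of its 4 TSSs, and it also held a TSS of Anapc10, a subunit of the anaphase-promoting complex. The UP region at Abcf2 (chr5:24576945-24578388, 1444 bp) held its single TSS, 921 bp from the upstream edge and 522 bp from the downstream edge. A further UP region of 1638 bp lay 9039 bp from the Abcf2 TSS and held a TSS of Chpf2, a chondroitin polymerising factor. The UP region at Abcf3 (chr16:20547087-20549390, 2304 bp) covered exons 1 to 3 of the 21 and 4 of 10 TSSs, together with a TSS of the pseudogene Gm15760. Abcf1, which takes part in translation initiation, was unchanged at its TSSs (region of 1585 bp), and an UP region of 2584 bp with TSSs of Gnl1 and Prr3 began 8539 bp away. For Abce1 and Abcf3, which of the genes in the region the change belongs to was not tested. Without regions that hold a TSS of another gene, 6 of the 8 UP genes were left, and Abcf2 was then the one UP gene of the 4 ATPases.

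The canalicular exporters make bile, and 6 of these 8 genes had a TSS in a region, of which Abcc2 alone was UP and none was DOWN. The UP share was 16.7% (interval 3.01% to 56.4%), beside 25.7% in the same width deciles and 21.6% over all genes. The DOWN interval was 0% to 39%, beside 11.8% and 8.33%, so both intervals hold these shares. Abcc2 (Mrp2) exports bilirubin glucuronides and other conjugates into bile. Its UP region (chr19:43775767-43789727) was 13961 bp wide, the widest region at a TSS of any ABC or SLCO gene. It ranked 34 in width among UP regions and 104 among all regions. The region reached from 6425 bp before to 7535 bp after the TSS at 43782192 and held exons 1 and 2 of the 32. It contained 2 of the 5 Abcc2 TSSs, and an unchanged region of 1299 bp held another one, of a noncoding transcript inside the gene. The promoter of Abcc2 printed above lay in this wide region and had few CG dinucleotides.

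Another 5 canalicular exporters had unchanged regions of 2036 bp to 2879 bp, in width deciles 6 and 8 and above the 1782 bp median of all genes. Abcb11, the bile salt export pump, was unchanged at 3 of its 4 TSSs (region of 2879 bp), and an UP region of 442 bp lay in its gene body, 37165 bp from the nearest TSS. Abcb4, which flops phosphatidylcholine into bile, had 3 of 5 TSSs in an unchanged region of 2878 bp. The next region downstream, 8677 bp wide and 3047 bp from the nearest TSS in the Abcb4 gene body, was DOWN, and an UP region of 984 bp lay farther along the gene. Changed regions of both directions thus lay in Abcb4 without its TSS region passing the test. Abcg2, an exporter of drugs and urate, had 6 of 13 TSSs in an unchanged region of 2771 bp. Abcg5 and Abcg8, the partners of the sterol exporter, shared an unchanged region of 2036 bp and had no changed region within 10 kb. Abcb1a and Abcb1b, which encode P-glycoprotein, had no TSS in a region, although a TSS of Abcb1b lay 16 bp outside an unchanged region of 357 bp.

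The Abcc exporters of conjugates held changed regions of both directions. Of these 7 genes, 5 had a TSS in a region, 2 of them UP (Abcc4 and Abcc10), 1 DOWN (Abcc3) and 2 unchanged (Abcc5 and Abcc6). The UP share was 40% (interval 11.8% to 76.9%) and the DOWN share 20% (interval 3.62% to 62.4%). In the same width deciles the shares were 19.4% and 8.69%, and each lies within its interval. Abcc3 (Mrp3) carries conjugates across the basolateral membrane toward blood. The DOWN region at Abcc3 (chr11:94389171-94393184, 4014 bp) held 4 of 6 TSSs and exon 1, with 208 bp before and 3805 bp after the TSS. Abcc3 had 2 more DOWN regions in its gene body, of 4879 bp and 4457 bp, which lay 1822 bp and 1649 bp from its nearest TSS. It had 3 DOWN, 0 UP and 3 unchanged regions within 10 kb of its TSSs, the most DOWN regions of any ABC or SLCO gene at that distance. With the TSSs of protein-coding transcripts alone, Abcc3 had 1 DOWN region within 10 kb, so that 2 of the 3 counted through noncoding transcripts.

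Abcc4 (Mrp4), which exports cyclic nucleotides and bile salt conjugates, had the narrowest UP region at a TSS of these genes (chr14:118705894-118706517, 624 bp). It held 2 of 6 TSSs, near its middle, with 312 bp before and 311 bp after the TSS. Abcc4 had 2 more UP regions within 10 kb of a TSS, of 231 bp in the gene body and of 4094 bp outside the gene at 6698 bp, which made 3 UP and 0 DOWN, the most UP regions of any of these genes. With the TSSs of protein-coding transcripts alone Abcc4 had 2, as did Abcf2. The UP region at Abcc10, a drug exporter, was 1474 bp wide (chr17:46327561-46329034) and held 5 of 7 TSSs. Abcc5, which also exports cyclic nucleotides, had an unchanged region of 392 bp at 5 of 13 TSSs, with an UP region of 1138 bp and a DOWN region of 2489 bp in the gene body. Abcc6, a liver gene mutated in pseudoxanthoma elasticum, had an unchanged region of 3875 bp, and an UP region of 389 bp lay 3467 bp outside the gene. Abcc12 had no TSS in a region, and 2 DOWN regions of 2487 bp and 1133 bp lay in its gene body. Abcc1, an exporter of glutathione conjugates, had no TSS in a region, and 5 of its 12 TSSs lay between 56 bp and 79 bp outside an unchanged region.

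**Figure D2:**
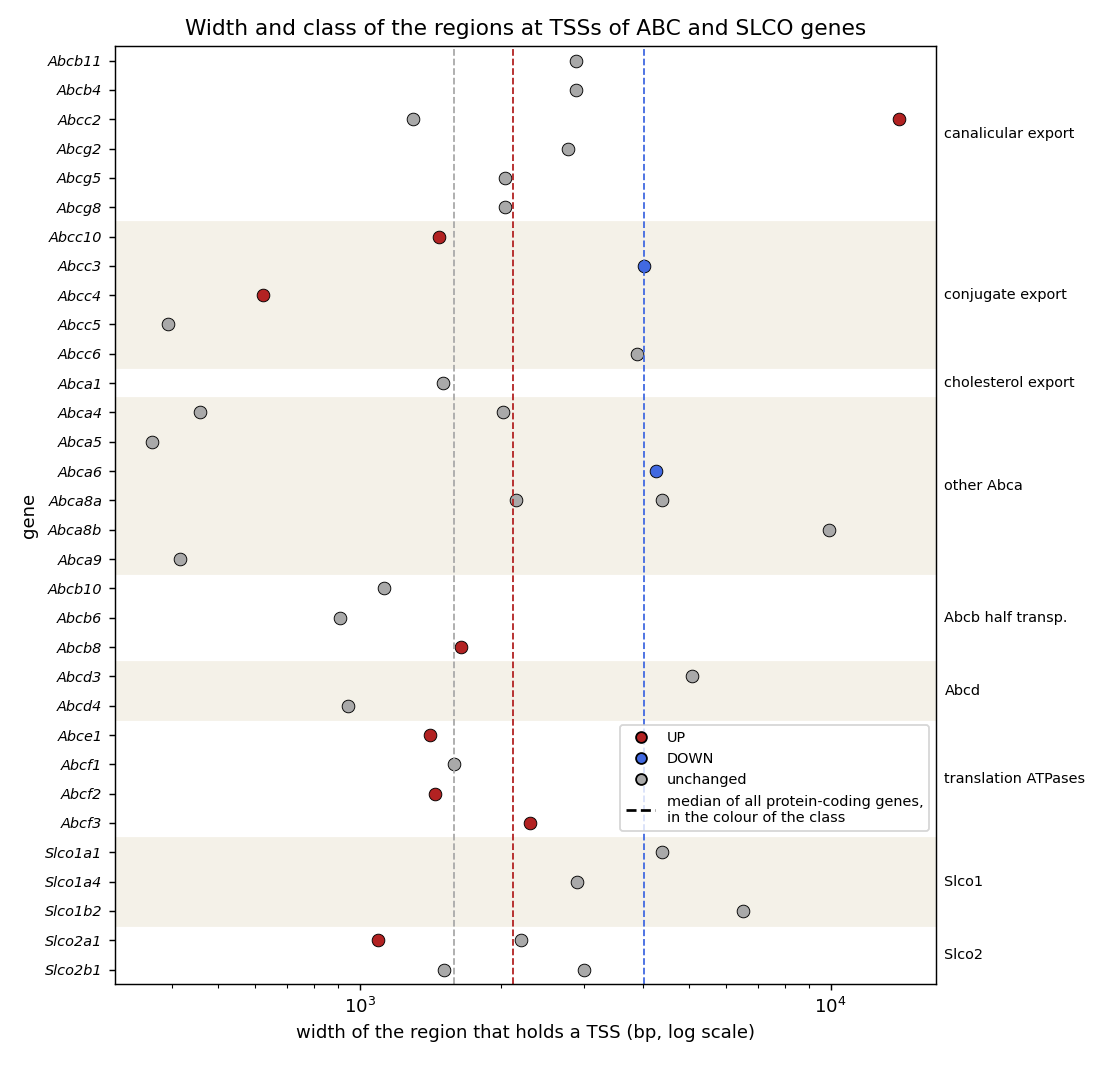
Width in bp (horizontal axis, log scale) of each region that holds a TSS, 1 row per gene (vertical axis) grouped by role, for 32 of the 34 genes, with points coloured by class and dashed lines at the median width over all protein-coding genes with a TSS in a region of that class. UP points range from 624 bp (Abcc4) to 13961 bp (Abcc2), and the 2 DOWN points, Abcc3 and Abca6, lie at 4014 bp and 4261 bp, beside the DOWN median of 4020.5 bp.

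In the cholesterol exporters, Abca1 alone of 4 genes had a TSS in a region, and Abcg1, Abcg4 and Abca7 had none. Abca1 loads cholesterol onto apolipoprotein A-I. The region at its TSS was unchanged and 1504 bp wide. The gene body of Abca1 held 3 UP regions, of 607 bp, 3591 bp and 11170 bp, all at least 33817 bp from a TSS. Abca1 was therefore unchanged by its TSS while its gene body held more UP regions than any other ABC or SLCO gene. The changed region nearest to a TSS of Abca1 was DOWN, 3276 bp wide and 28154 bp away, outside the gene. Which gene these regions act on was not tested.

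Of the 14 other Abca genes, 6 had a TSS in a region, with 1 DOWN and 0 UP (UP interval 0% to 39%, DOWN share 16.7%, beside 22% UP and 12.7% DOWN in the same width deciles). Abca6 had the DOWN region (chr11:110248934-110253194, 4261 bp), which held both of its TSSs and exons 1 and 2 of the 39. Abca6 lies in a row of related genes on chromosome 11, from Abca8b to Abca5, over 405527 bp. This row held 15 regions, of which the DOWN region at Abca6 was the single changed one. Farther along the row, Abca8a had unchanged regions of 4387 bp and 2148 bp at TSSs. Abca8b had an unchanged region of 9909 bp, after that of Abcc2 the widest at a TSS of these genes. Abca9 and Abca5, which flank Abca6, had narrow unchanged regions of 416 bp and 363 bp. Abca4, a retinoid transporter of photoreceptors, had unchanged regions of 459 bp and 2018 bp at TSSs inside the gene, with an UP region of 1180 bp in the gene body. Abca3, the surfactant lipid transporter of lung, had no TSS in a region, although one lay 1 bp outside an unchanged region.

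Of the Abcb transporters of organelles, 4 of 5 genes had a TSS in a region, with 1 UP and 3 unchanged. The UP interval was 4.56% to 69.9%, beside 18.7% UP and 2.46% DOWN in the same width deciles. All 3 Abcd genes with a region were unchanged (UP interval 0% to 56.1%, beside 23.1% UP and 9.33% DOWN). Abcb8, of the mitochondrial inner membrane, was UP, and its region (chr5:24393634-24395277, 1644 bp) held 5 of 9 TSSs, nearly at its edge, with 42 bp before and 1601 bp after the TSS. Abcb10, which serves heme synthesis, and Abcb6, a porphyrin transporter, had unchanged regions of 1128 bp and 910 bp. An UP region of 2341 bp with a TSS of Zfand2b, a zinc finger gene, lay 2411 bp from a TSS of Abcb6. Among the Abcd genes, Abcd3 had the widest region, of 5080 bp and unchanged, at 5 of 6 TSSs, with an UP region of 1871 bp in the gene body. Abcd3 is a peroxisomal carrier for bile acid intermediates. Abcd4, of lysosomal cobalamin transport, had an unchanged region of 946 bp, and Abcd2 had none. Abcb9, Abcb5, Abcg3 and the sulfonylurea receptors Abcc8 and Abcc9 had no TSS in a region, and Abcc9 had a DOWN region of 579 bp in its gene body.

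Of the uptake carriers of Slco1, 3 of 6 genes had a TSS in a region and all 3 were unchanged. Slco1b2, which takes up bile salts, bilirubin and statins, had an unchanged region of 6505 bp, the third widest at a TSS of these genes. It held 1 of 4 Slco1b2 TSSs, 4917 bp from its upstream edge, and the 5′-most TSS lay 23 bp outside. Slco1a1 had all 3 TSSs in an unchanged region of 4383 bp, and Slco1a4 had 3 of 4 in one of 2889 bp. Both are organic anion carriers of the sinusoidal membrane. Slco1a5, Slco1a6 and Slco1c1, a thyroxine carrier of the blood-brain barrier, had none, and an UP region of 1594 bp lay in the gene body of Slco1a6.

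Changed regions of the Slco1 cluster lay mostly outside the Slco1 genes. The cluster spans 798614 bp on chromosome 6 and held 1 UP, 5 DOWN and 13 unchanged regions. Over all 32196 regions, 17.1% were UP and 10.5% DOWN, and whether the cluster differs from this was not tested. All 5 DOWN regions lay outside the Slco1 genes, and overlap with the bodies of other genes was not examined. DOWN regions of 4946 bp, 1566 bp and 4265 bp followed each other upstream of Slco1a4, at 9104 bp, 14989 bp and 18911 bp from its TSS, and the first of them held a TSS of the predicted gene Gm30784. The other two, of 1860 bp and 226 bp, lay 37609 bp from a TSS of Slco1b2 and 98548 bp from one of Slco1a1. By comparison, the Abcb1a to Abcb4 locus of 299155 bp held 2 UP, 1 DOWN and 7 unchanged regions. The maps of these loci show the unchanged TSS regions of Slco1b2, Slco1a4 and Slco1a1. Of these 3 genes, Slco1a4 alone had a DOWN region within 10 kb of a TSS. Which genes the DOWN regions act on was not tested.

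**Figure D3:**
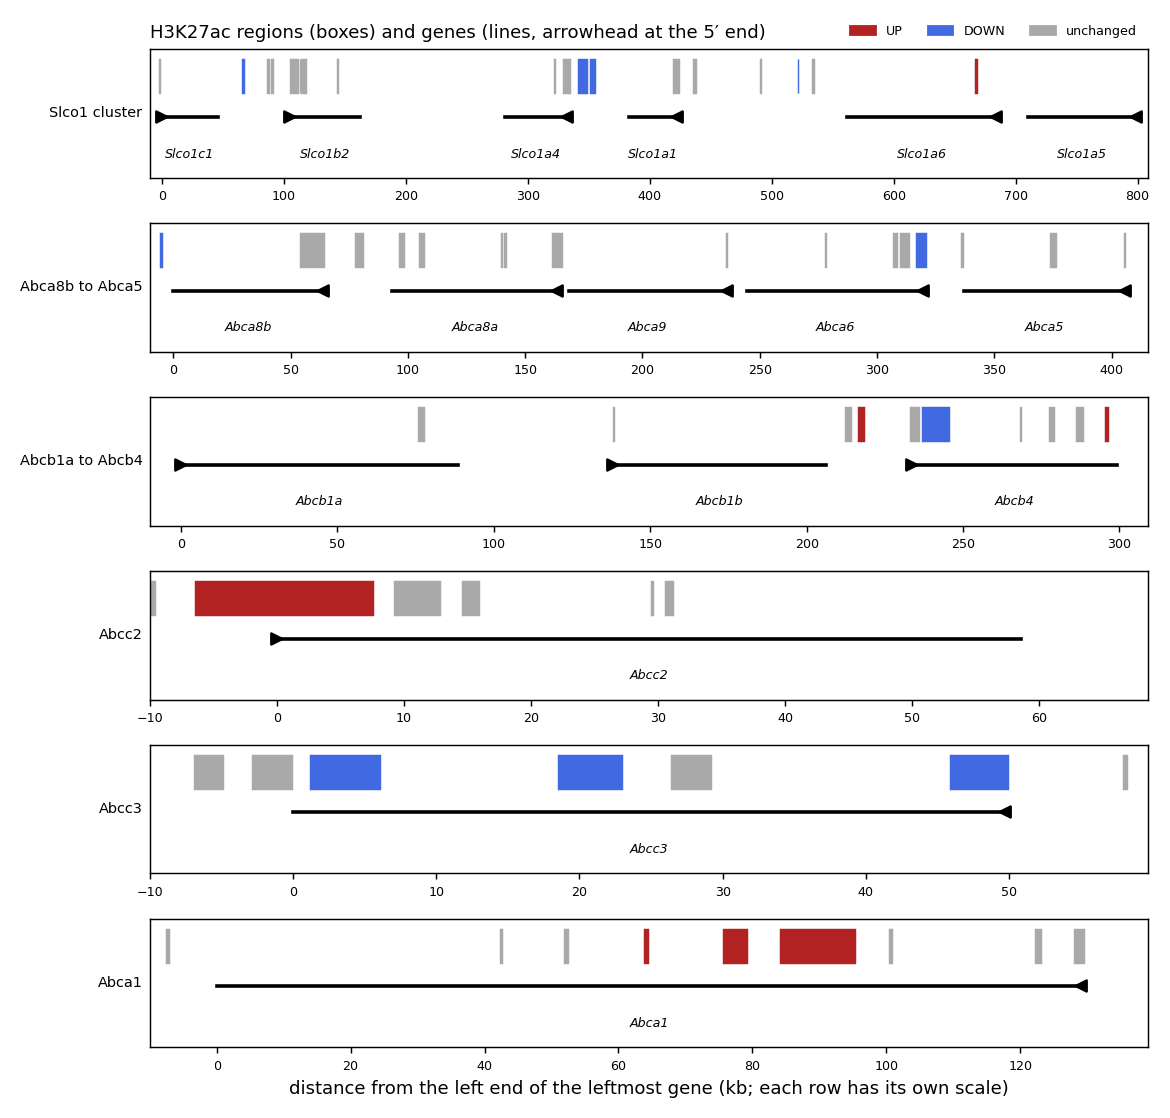
Maps of 6 loci, each with its own scale in kb from the left end of its leftmost gene (horizontal axis), with genes as lines (arrowhead at the 5′ end) and H3K27ac regions as boxes coloured by class, 10 kb beyond the genes included. A group of 3 DOWN regions, the left pair of which runs together at this scale, stands to the right of Slco1a4, the 5′ side of the gene, a DOWN region covers the 5′ end of Abca6, the UP region of Abcc2 covers its 5′ end on both sides, 3 DOWN regions lie in Abcc3 and 3 UP regions lie inside Abca1. The DOWN box at the left edge of the Abca8b map lies beyond the genes and is not among the 15 regions of that row.

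Among the remaining carriers, Slco2a1 and Slco2b1 had TSSs in regions and Slco3 to Slco6 genes had none. Slco2a1, the prostaglandin carrier, was UP through an annotated noncoding transcript alone. That UP region was 1093 bp wide (chr9:102988227-102989319) and held 1 of 4 TSSs, the coding TSS lay in an unchanged region of 2200 bp, and a DOWN region of 1201 bp lay 2789 bp from the nearest TSS. With protein-coding transcripts alone, no SLCO gene was UP. Slco2b1, a carrier of sulfated steroids, had 2 unchanged regions at TSSs, of 1511 bp and 3000 bp, each shared with an antisense transcript, and a DOWN region of 1717 bp in its gene body. For the SLCO genes as a group, 0 of 5 were DOWN, with an interval up to 43.4%, beside 15.4% in the same width deciles.

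Regions near a TSS gave shares close to the background as well. Within 10 kb of a TSS, 46 of the 64 genes had a region, 15 of these an UP region (32.6%, beside 29% of all protein-coding genes with a region at that distance) and 7 a DOWN region (15.2%, beside 14.1%). Abcb4, Abcc5 and Slco2a1 had both, and none of them did with protein-coding transcripts alone. The genes had 107 different regions within 10 kb. Of these, 18 were UP (16.8%, beside 17.4% of the regions near any protein-coding TSS), 9 were DOWN (8.41%, beside 9.04%) and 80 were unchanged. By subfamily, Abcc held 7 UP and 5 DOWN of its 32 regions, Abcb 4 UP and 1 DOWN of 20, Abcf 4 UP of 5, Abca 1 DOWN of 17, and Abcd and Abcg no changed region in 7 and 5. Over the gene body, 16 of 44 genes with a region there had an UP region (36.4%, beside 29.8%) and 7 a DOWN region (15.9%, beside 15.3%). The median length of these genes was 63202 bp, against 26167 bp over all protein-coding genes with a region in the body, and the part of length in the share was not tested.

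Region width differed between the classes in all genes and was therefore set beside the TSS counts of subfamilies and of several role groups. It was not set beside the counts within 10 kb or in gene bodies. The share of protein-coding genes with a TSS in an UP region went from 9.57% in the narrowest decile of width (211 to 706 bp) to 29.4% in the widest (5326 to 37515 bp), and the DOWN share from 1.22% to 30.9%. For genes of the same width deciles as the 34 genes, the mean background was 22.6% UP and 9.59% DOWN, close to the unadjusted 21.6% and 8.33%. The 8 UP genes had a median width of 1459 bp, less than the 2118.5 bp of all UP genes. Without Abcc2 the range of these widths was narrow, from 624 bp to 2304 bp. The 2 DOWN genes had a median of 4137.5 bp, beside 4020.5 bp, and both lay in decile 9, in which 18.9% of all genes were DOWN. The 26 genes with unchanged regions had a median of 2118 bp, wider than the 1587 bp of all such genes. In the 2 widest deciles, which held 9 of the genes, 1 was UP (Abcc2), 2 were DOWN (Abcc3 and Abca6) and 6 were unchanged (Abca8b, Slco1b2, Abcd3, Abca8a, Slco1a1 and Abcc6).

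**Figure D4:**
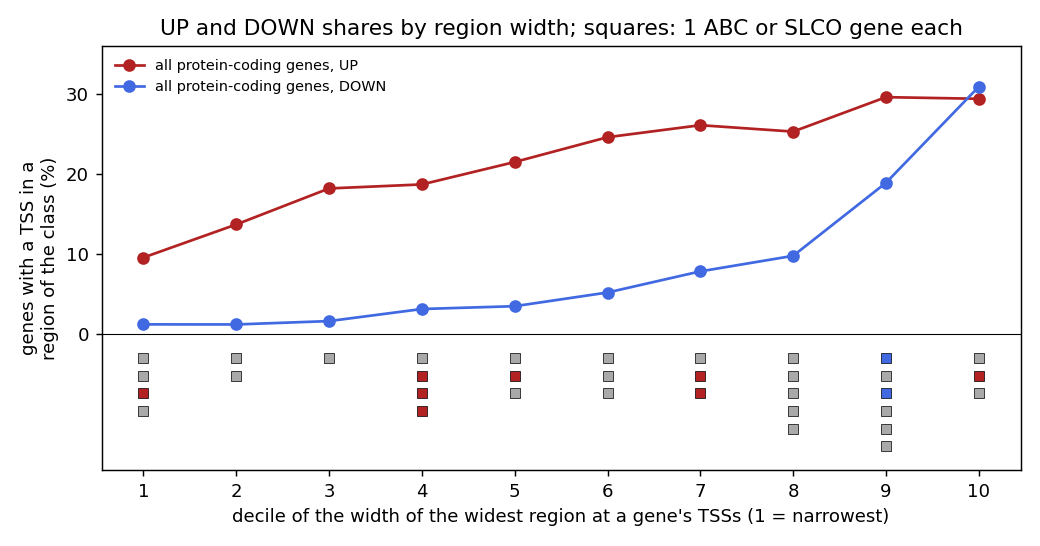
Percent of all protein-coding genes with a TSS in an UP or a DOWN region (vertical axis) in each decile of region width, by the widest one at the TSSs of a gene (horizontal axis), with 1 square under the axis for each of the 34 ABC and SLCO genes, coloured by class. The DOWN line stays under 10% to decile 8 and reaches 30.9% in decile 10, and both DOWN squares stand in decile 9.

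The CG content of the promoters varied widely within each class. Every promoter was counted, although those of Abcf2 overlap each other, as do that of Abcg5 and the one of Abcg8 in a region. The 7 promoters in UP regions had a median of 27 CG dinucleotides, from 1 (Abcc2) to 41 (Abcc4), beside 23 over 1751 promoters of all genes in UP regions. The 17 promoters in unchanged regions had a median of 10, from 0 (Slco1a1) to 45 (Abcd3), beside 23 over 6176 promoters. The 37 promoters outside regions had a median of 9, beside 6. Promoters with at most 6 CG dinucleotides in regions belonged to Abcc2 and to the unchanged Abca8a, Abca9, Abcb11, Abcg5, Abcg8, Slco1a1, Slco1a4 and Slco2b1. Except for Abcc2, the UP promoters held at least 17 CG dinucleotides. No promoter in a DOWN region was matched.

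**Figure D5:**
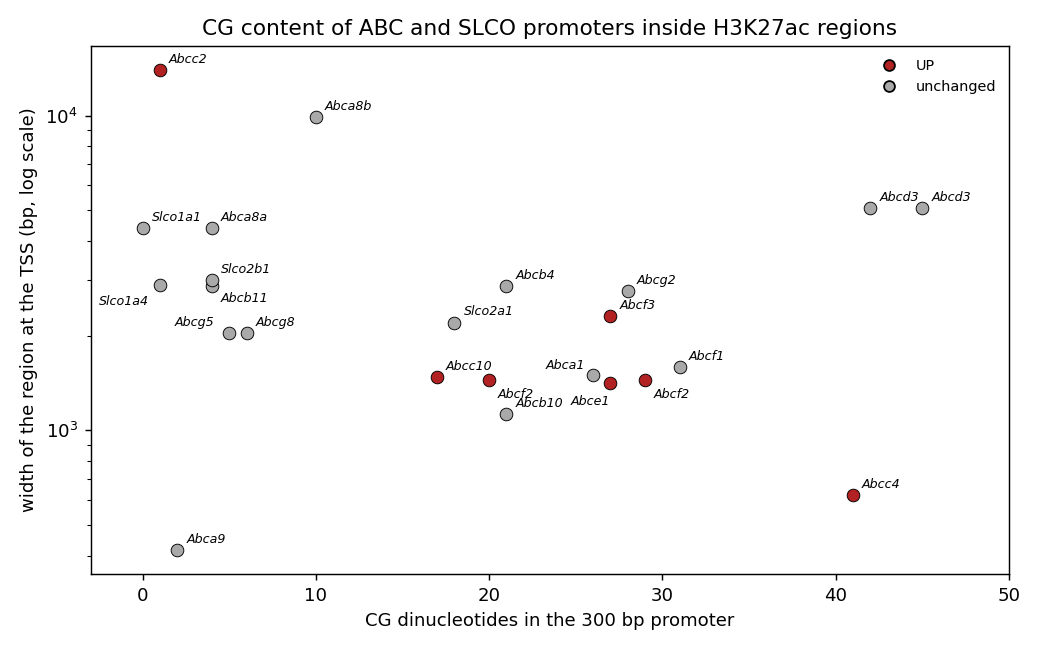
Width in bp of the region at the TSS (vertical axis, log scale) against the number of CG dinucleotides in the 300 bp promoter (horizontal axis) for the 24 ABC and SLCO promoters in UP or unchanged regions, 1 point per promoter. Abcc2 stands alone at 13961 bp with 1 CG, and the other UP promoters lie at 17 CG or more, with widths from 624 bp to 2304 bp.

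Short motifs of stress and liver factors were rare in the promoters. Each was searched on both strands as exact letters: TGATGCAA (ATF4 and CHOP), TGACGTGG (XBP1 and ATF6), CAAAGTCCA (HNF4), GGTCANTGA (FXR), TTATGNAA (PAR-bZIP and NFIL3), TGACTCA (AP-1) and TGACTCAGC (NRF2 and MAF), which contains the AP-1 motif. Of the 24 promoters in regions, only one of Abcd3 had a match, to the HNF4 motif (4.17%, beside 0.41% of 8539 promoters in regions), 14 bp after the TSS. Outside regions, matches included those in Abca13 (ATF4 and CHOP), Abcg2 and Slco1a5 (PAR-bZIP) and Slco2b1 (AP-1). Among all 20150 promoters the ATF4 and CHOP motif was found in 0.893%, the XBP1 and ATF6 motif in 0.734%, the HNF4 motif in 0.471%, the FXR motif in 0.759%, the PAR-bZIP motif in 3.02%, the AP-1 motif in 4.65% and the NRF2 motif in 0.427%. A match is a description of letters, and its absence says only that these letters are not in the window.

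Genes that act beside these carriers were looked up for context. Of 12 other genes of bile and drug transport, 7 had TSSs in unchanged regions, among them Slc10a1, the sodium-dependent bile salt carrier (3359 bp), and Atp8b1, a canalicular flippase (1747 bp), and 5 had no TSS in a region. Of 10 nuclear receptors and other transcription factors that control transporter genes, 5 carried a DOWN region at a TSS and none an UP region. Over all protein-coding genes with a TSS in a region, the shares were 8.33% DOWN and 21.6% UP. Among them were Nr1h4 (the bile acid receptor FXR, 12673 bp), Nr1i2 (the xenobiotic receptor PXR, 16806 bp), Nfe2l2 (NRF2, 10932 bp) and Hnf4a (13466 bp). All 4 had regions in the widest decile, in which 30.9% of all genes were DOWN. Nr1h4 also had a TSS in an unchanged region, and the width given is that of its widest region. Nr0b2, Nr1i3, Nr1h2, Nr1h3 and Ppara had unchanged regions alone. Tap1 and Tap2, ABC peptide transporters whose symbols fall outside the rule, were unchanged, and Cftr, the ABC chloride channel, had no TSS in a region. On the study's list of LIVER-ID genes, which carry a broad H3K4me3 domain preferentially in liver, were Abcc2 (UP) and Abcd3, Slco1a1 and Slco1b2 (unchanged).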

How the data were processed

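H3K27ac ChIP-seq libraries of MPH (3 per treatment) and 1 input library per treatment were analysed through the authors' region lists. Per the submitters' processing notes and the methods, reads were mapped to mm10 with Bowtie, filtered for duplicates and blacklisted regions, and broad peaks were called with MACS2 on pooled libraries. The authors counted reads in bins of 150 bp (extension 200 bp), discarded bins at input level (prior count 5), normalized by loess, tested bins in a paired csaw analysis and combined bins that overlap a peak by 75 bp. The UP and DOWN lists hold combined regions that passed a false discovery rate (FDR) of 0.05. The ratio of UP to DOWN bins is 2 or more in the UP list and 0.5 at the most in the DOWN list. Regions above that FDR are unchanged. Regions that passed it with a ratio between 0.5 and 2 are by these rules in no list. The deposited values are start and end positions in bp, without counts, signal or p-values, so the depth per library is unknown and no test was run. The code as printed puts thapsigargin first among factor levels. Read literally, this would test DMSO against thapsigargin and exchange UP and DOWN. Classes were taken as the lists name them, and all 6 ERS genes looked up lay in UP regions.

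A gene took the class of each region that overlaps the TSS of any of its GENCODE M21 transcripts. Regions within 10 kb of a TSS and over gene bodies were also counted, each once. Shares have 95% Wilson intervals. Where several regions held TSSs of 1 gene, the widest gave its width, and 10 deciles were formed over all protein-coding genes. Promoters came from a RefSeq table, and protein sequences were not used here. Some genes and a motif that were looked up are not reported here. Named genes were those with a TSS in a changed region, genes of 2 classes, those with most regions within 10 kb, the 3 widest regions and examples by role. Members, role lists, partner lists and motifs were chosen with earlier results of these data known. Counting functions were tested on simulated regions. Python 3.11.15, numpy 2.4.6, scipy 1.17.1 and matplotlib 3.10.9 were used.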

Additional observations from a re-analysis of the deposited data

How the results depend on the processing

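The 34 genes with a TSS in a region, 8 UP and 2 DOWN, depend on how a region is tied to a gene. Taking a TSS within 10 kb gave 15 UP, 7 DOWN and 41 unchanged genes (ABC 13 UP and 5 DOWN, SLCO 2 UP and 2 DOWN). Asking for 500 bp of region to both sides of the TSS gave 22 genes with a region, 15 of them unchanged, with 1 DOWN gene, an ABC gene, and 0 UP genes in SLCO, since Abcc3, Abcc4 and Slco2a1 lost their changed region. SLCO also had 0 UP genes with protein-coding transcripts alone and when a gene could count in 1 class only, and Abcc4 was lost when regions under 1 kb were dropped. Near TSSs, 50 kb in place of 10 kb gave 40 UP, 20 DOWN and 181 unchanged regions, protein-coding transcripts gave 4 DOWN regions in place of 9, and dropping regions under 1 kb gave 42 unchanged in place of 80. The alternatives without regions that hold a TSS of another gene and with TSSs within 100 bp of a region were chosen after seeing the data. In all, 55 of 74 recomputed values stayed within 1.5 times the reported value and 19 moved beyond it. The cause was not tested, beyond the construction of each alternative. No paired analysis was possible because the lists hold no value for any single library, which also means that no library could be left out. No stricter FDR could be set.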
